A study of Mus musculus with 13 samples.

Results

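The integrated stress response genes described here were chosen by name from knowledge of the pathway, with earlier results of these data known. They are 10 mouse genes: Atf4, Ddit3, Trib3, Asns, Chac1, Fgf21, Gdf15, Sesn2, Ddit4 and Ddit4l. Of these, 9 were among the 17924 genes of the deposited tables, and all 9 passed the filter on low values and were tested. Fgf21, a secreted hormone, is not analysed here. RNA was sequenced from whole EDL, psoas and soleus muscles of mdm mice, which carry a deletion in the titin gene and develop a muscular dystrophy with myositis. EDL (extensor digitorum longus) and psoas are mainly fast muscles and soleus is a slow muscle. The 13 libraries came from mdm mice of the B6C3Fe a/a-Ttn mdm/J colony: 5 EDL libraries from mice 38 to 42 days old, 5 psoas libraries from mice 29 to 42 days old, and 3 soleus libraries from mice 33 to 38 days old. Every group carries the mdm mutation, and neither the labels nor the study names a treatment. The study took the muscles from mice killed with isoflurane for other experiments. Wild-type libraries were not analysed here, so the values compare mdm muscles with each other and do not show the effect of the mutation. Muscles of 1 mouse can be in more than 1 group, and the labels do not name the animals. Sex is labelled for 6 of the 13 libraries.

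In the integrated stress response, kinases that sense amino acid shortage, misfolded protein, heme deficiency or viral RNA phosphorylate the initiation factor eIF2. General translation then falls while translation of the transcription factor ATF4 rises, so the Atf4 mRNA need not change for its protein to do so. ATF4 and its partners, among them CHOP (encoded by Ddit3), bind composite elements of C/EBP and ATF half-sites and induce genes of amino acid supply, glutathione turnover, growth restraint and secreted stress hormones. In skeletal muscle the pathway is known from fasting, immobilization and mitochondrial disease. Several of the genes also answer to other inputs, such as p53 for Sesn2 and glucocorticoids and hypoxia for Ddit4.

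Promoter sequences are shown for Asns, which differed between muscles, and for Chac1, which varied widely between libraries, because both windows hold a match to the C/EBP-ATF element, searched as TGATGNAA on both strands. The RefSeq windows (GRCm38.p6) run from 250 bases before to 50 bases after the start of transcription, and all 10 genes have one. The motif was found in 4 of the 10 genes and in 3.97% of the 32851 windows of all genes. The genes with a match were Asns, Chac1, Fgf21 and Trib3, the last with its match 15 bases after the start on the opposite strand. The 250 bases before the start are printed 5′ to 3′ along the strand of the gene, with the match in capitals. The Asns sequence is the reverse strand of chr6:7693210-7693459, with a match on the same strand whose first base lies at -23. The Chac1 sequence is the forward strand of chr2:119350992-119351241, with a match on the opposite strand beginning at -193.
Asns: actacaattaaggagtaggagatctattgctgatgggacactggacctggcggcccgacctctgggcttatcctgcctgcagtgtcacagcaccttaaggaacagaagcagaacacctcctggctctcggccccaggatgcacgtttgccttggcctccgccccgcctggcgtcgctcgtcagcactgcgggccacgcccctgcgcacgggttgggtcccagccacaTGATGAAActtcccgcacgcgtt
Chac1: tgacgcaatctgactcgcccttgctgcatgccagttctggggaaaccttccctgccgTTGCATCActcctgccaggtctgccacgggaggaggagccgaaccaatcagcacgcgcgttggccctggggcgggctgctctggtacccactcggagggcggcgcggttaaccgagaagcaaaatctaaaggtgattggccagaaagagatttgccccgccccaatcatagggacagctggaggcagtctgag
These matches describe the letters of the windows and do not show that ATF4 was bound in these muscles.

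Total counts ran from 9114176 to 48835209 per library, with a median of 20588849. The study also reports an RNA integrity number per library, and every psoas value was at or below the lowest EDL value. The part of RNA quality in differences between these muscles was not tested. Levels are given as the authors' normalized counts, which are gene counts divided by a size factor per library. Differences are log2 fold changes from edgeR with 1 standard error (SE). A call required a p below 0.01 after Benjamini-Hochberg adjustment and a log2 difference beyond 1 in either direction. The labels also carry a code with 5 values whose meaning they do not state. The study sequenced in 5 runs, but the code is not named as a run. T1 is on EDL replicate 1 and T3 on psoas replicate 1. T4 is on EDL and psoas replicate 2 and soleus replicates 1 and 2, T5 on EDL and psoas replicate 3, and T6 on soleus replicate 3 and on replicates 4 and 5 of both EDL and psoas. Slow myofibre markers summed to between 313789 and 385411 in soleus and stayed at or below 63162.7 in EDL and psoas libraries, which matched the labelled muscles.

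Per kilobase of exon, Ddit4 had the highest mean level, 954 normalized counts over the 13 libraries, and Atf4 came next with 394. Ddit3, Ddit4l and Asns followed with 101, 98.2 and 91.6, and Chac1 had 54.9. Gdf15, Sesn2 and Trib3 were lowest with 15.2, 14.1 and 7.10. The SD over the libraries was 920.0 for Ddit4 and 105 for Atf4, and the means of Ddit3, Ddit4l and Asns lay within 1 SD of each other. The order by spread was a different one. The highest library exceeded the lowest 40.1-fold for Ddit4l and 22.3-fold for Ddit4, but only 2.97-fold for Ddit3 and 2.41-fold for Atf4, the regulators at the head of the pathway.

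**Figure D1:**
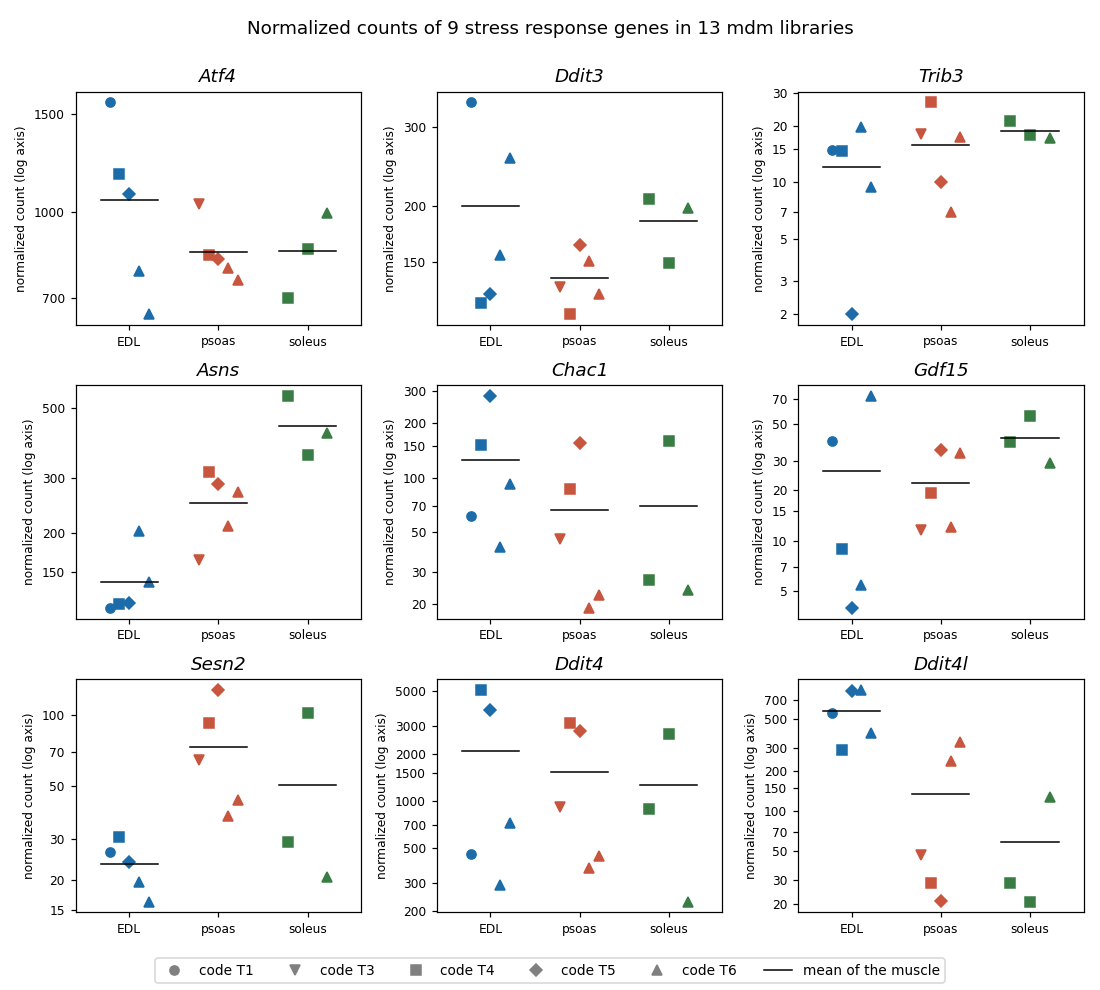
Normalized counts (vertical log axis) of the 9 measured genes in each of the 13 mdm libraries, grouped by muscle on the horizontal axis. Marker shapes give the label code and black lines the mean of a muscle. Mean Asns was 139 in EDL, 249 in psoas and 440 in soleus, whereas Ddit4 spans from 229 to 5102 with all muscles overlapping.

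Atf4 (chr15, from 80255184 to 80257541 on GRCm38), the transcription factor of the pathway, was not called between muscles and had the smallest spread of the 9 genes. EDL replicates 1 to 5 had 1578, 1173, 1077, 783 and 655 normalized counts. Psoas had 1034, 836, 823, 794 and 756, and soleus had 701, 859 and 997. The psoas and soleus libraries lay within the EDL range. The log2 difference was -0.31 (SE 0.22, adjusted p = 0.347) for psoas against EDL and -0.30 (SE 0.26, adjusted p = 0.655) for soleus against EDL. An interval of 2 SE around the psoas difference ran from -0.76 to 0.13 on the log2 scale, so at this number of libraries a doubling in either direction lay outside it. For soleus against psoas the log2 difference was 0.01 (SE 0.26, adjusted p = 0.991).

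Ddit3 (chr10, from 127290774 to 127296288), which encodes the factor CHOP, was not called between muscles either. EDL had 341, 122, 127, 156 and 256 normalized counts, psoas 132, 115, 164, 151 and 128, and soleus 208, 149 and 198. EDL replicate 1 was the highest of all, and the 3 muscles overlapped. The log2 difference of psoas against EDL was -0.54 (SE 0.27, adjusted p = 0.173), and those of soleus were -0.11 against EDL (SE 0.31, adjusted p = 0.912) and 0.43 against psoas (SE 0.31, adjusted p = 0.574). In GENCODE the gene shares 2925 bases with a shorter gene model of the same name, so reads could be split between them.

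Trib3 (chr2, from 152337422 to 152344032), a pseudokinase induced by ATF4 and CHOP that restrains their activity, was near the lower limit of measurement. EDL had 14.9, 14.7, 1.99, 19.6 and 9.47 normalized counts, psoas 18.2, 26.7, 10.1, 6.95 and 17.4, and soleus 21.1, 17.9 and 17.2. Raw counts ran from 1 read in EDL replicate 3 to 51 in soleus replicate 1, and the muscles overlapped. The log2 differences were 0.35 for psoas against EDL (SE 0.46, adjusted p = 0.642), 0.59 for soleus against EDL (SE 0.53, adjusted p = 0.675) and 0.24 for soleus against psoas (SE 0.52, adjusted p = 0.869).

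Asns (chr6, from 7675169 to 7693254), asparagine synthetase, was the only one of the 9 genes called between muscles by edgeR without the replicate block. Its normalized counts were 115, 119, 119, 203 and 139 in EDL. They were 164, 313, 287, 211 and 269 in psoas. They were 547, 354 and 418 in soleus. Every soleus library was above every EDL and every psoas library, while the lowest psoas library was below the highest EDL library. Of all genes, 5.33% separated soleus from EDL in this direction and 4.97% soleus from psoas. Means were 139 ± 36.7 in EDL (SD, n = 5), 249 ± 60.4 in psoas (SD, n = 5) and 440 ± 98.04 in soleus (SD, n = 3).

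Soleus exceeded EDL 3.18-fold in Asns (log2 fold change 1.67, SE 0.25, adjusted p = 0.00330). In this comparison 1 of the 9 genes was called, against 0.978% of all genes tested. The call depended on 1 library and on the label code: without soleus replicate 1 the log2 fold change was 1.48 (adjusted p = 0.0289), and with the code as a block it was 1.58 (adjusted p = 0.0118). The difference in mean log2 CPM was 1.86 within code T4 and 1.32 within code T6. Psoas was above EDL 1.79-fold, a log2 difference of 0.84 (SE 0.22, adjusted p = 0.0184) that passed the limit on p only at 0.05. Without EDL replicate 4, the highest EDL library, that difference was 1.01 and was called (adjusted p = 0.00834). Soleus against psoas gave 0.83 (SE 0.25, adjusted p = 0.169). Adipocyte markers moved with Asns: all 7 were measured and none was at 0 in every library, and they summed to between 9385 and 28900 in EDL, 14760 and 38300 in psoas, and 55392 and 86031 in soleus. Slow myofibre markers were also highest in soleus. The part of these cells in the Asns difference was not tested, and in whole muscle a different share of a cell type and a different amount of RNA per cell cannot be told apart.

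**Figure D2:**
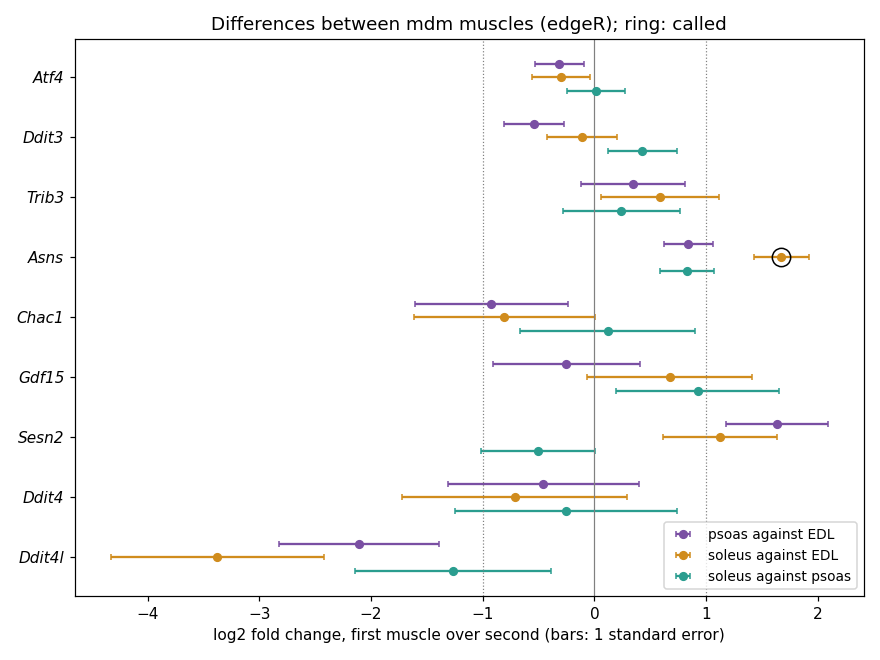
Log2 fold change (horizontal axis) of the 9 genes on the vertical axis, first muscle over second, from edgeR with bars of 1 SE. Dotted lines mark the limits of 1 on the log2 scale, and the ring marks the only call of this fit, Asns in soleus against EDL at 1.67.

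Chac1 (chr2, from 119351229 to 119354381), an enzyme that degrades glutathione, varied more between libraries of a muscle than between muscles. EDL had 61.3, 152, 283, 41.4 and 92.0 normalized counts. Psoas had 45.7, 87.0, 156, 19.1 and 22.4, and soleus had 27.3, 159 and 24.1. The muscles overlapped, but in each of the 5 pairs of the same replicate number the psoas library was the lower one. The log2 difference of psoas against EDL was -0.92 (SE 0.69, adjusted p = 0.373), and it was -0.998 (SE 0.25, adjusted p = 0.0199) with the replicate number as a block. Soleus differed from EDL by -0.81 (SE 0.81, adjusted p = 0.714) and from psoas by 0.12 (SE 0.78, adjusted p = 0.963).

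Gdf15 (chr8, from 70629393 to 70632456), a secreted stress hormone that lowers appetite, was low and scattered. EDL had 39.2, 8.93, 3.98, 5.45 and 73.0 normalized counts, psoas 11.6, 19.2, 34.8, 12.2 and 33.2, and soleus 38.9, 55.7 and 29.2. The EDL libraries spanned more than the whole range of the other muscles. The log2 differences were -0.25 for psoas against EDL (SE 0.65, adjusted p = 0.821), 0.67 for soleus against EDL (SE 0.74, adjusted p = 0.745) and 0.92 for soleus against psoas (SE 0.73, adjusted p = 0.608). Without EDL replicate 5, which held the highest value, the psoas difference turned to 0.51.

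Of the 9 genes, 3 act on mTORC1, the kinase complex that drives protein synthesis and growth. Sesn2 (chr4, from 132492032 to 132510501) encodes a leucine sensor that inhibits it through GATOR. EDL had 26.4, 30.6, 23.9, 19.6 and 16.2 normalized counts of Sesn2. Psoas had 64.3, 92.9, 128, 37.3 and 43.9, and soleus had 29.0, 102 and 20.6. Raw counts of Sesn2 were 62, 48, 12, 18 and 12 in EDL and 138, 174, 140, 43 and 53 in psoas. In soleus they were 70, 143 and 12. Low counts limit the precision of the EDL values. The annotation places another gene, Gm12981, within Sesn2 over 6089 bases. Every psoas library exceeded every EDL library of Sesn2, a separation shown by 6.48% of all genes in this direction, and soleus lay across both. Psoas was 3.10-fold above EDL (log2 fold change 1.63, SE 0.46, adjusted p = 0.0245), short of the limit of 0.01.

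Libraries of EDL and psoas with the same number were taken as pairs, although the labels do not name the animals and replicate 1 is not 1 animal. With the number as a block Sesn2 was called (log2 fold change 1.53, SE 0.27, adjusted p = 0.00560). DESeq2 also called it (adjusted p = 0.00413). The difference in log2 CPM was positive in 5 of 5 pairs, from 0.90 to 2.35, and within codes T4, T5 and T6 it was 1.53, 2.35 and 1.13. In psoas against EDL, 0 of the 9 genes were called by edgeR without the block, against 4.93% of all genes, and 3 had an unadjusted p under 0.05, against 33.3% of all genes. With the block, 1 of 9 was called against 7.42%, and with DESeq2 1 of 9 against 9.29%. Limma called 0 of 9 against 5.79%. At an adjusted p under 0.05 with no limit on the fold change, 2 of 9 passed, Asns and Sesn2, against 18.1% of all genes. Schwann cell markers, all 5 measured and none at 0 in every library, summed to between 1222 and 2428 in EDL and between 4044 and 28824 in psoas. Mesothelium markers, of which 1 of 5 was at 0 in every EDL library, summed to between 37.8 and 118 in EDL and between 235 and 1017 in psoas. Their part in the Sesn2 difference was not tested.

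**Figure D3:**
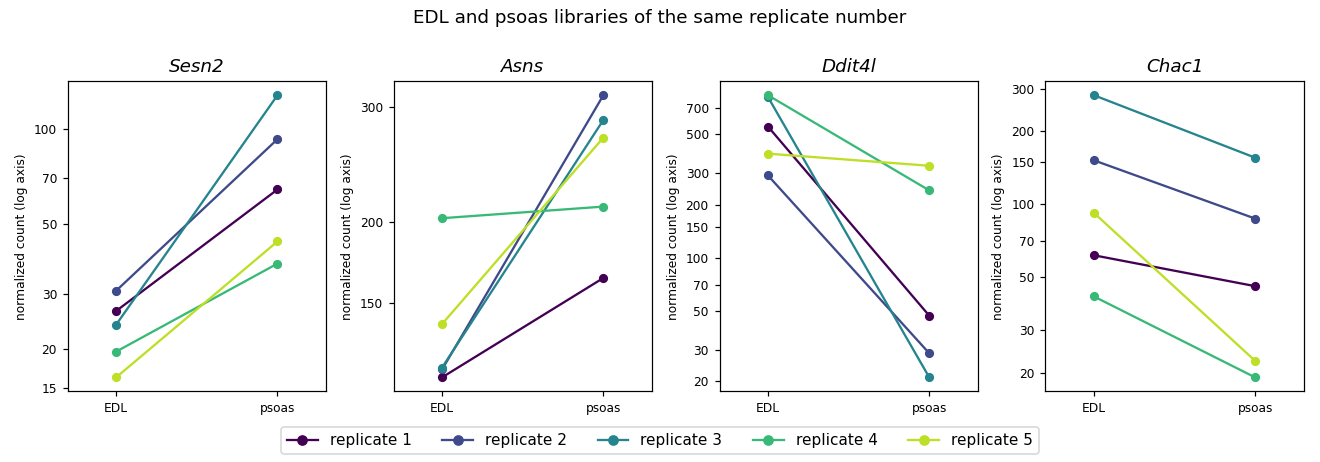
Normalized counts (vertical log axis) of Sesn2, Asns, Ddit4l and Chac1 in EDL and psoas, with lines joining libraries of the same replicate number. All 5 lines go up for Sesn2 and Asns and down for Ddit4l and Chac1, with an almost level line of replicate 5 for Ddit4l and of replicate 4 for Asns.

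Ddit4l (REDD2, chr3, from 137621612 to 137628333), an mTORC1 inhibitor found mainly in skeletal muscle, was highest in EDL. EDL had 553, 292, 812, 831 and 388 normalized counts. Psoas had 47.0, 28.8, 21.1, 241 and 332, and soleus had 28.6, 20.7 and 127. All soleus libraries were below all EDL libraries, as for 5.72% of all genes, and psoas overlapped EDL through replicate 5 only. The log2 difference of psoas against EDL was -2.11 (SE 0.72, adjusted p = 0.0541), lower in 5 of 5 pairs and -2.75 (SE 0.62, adjusted p = 0.0126) with the replicate block. Soleus against EDL gave -3.38 (SE 0.95, adjusted p = 0.0689) with edgeR and an adjusted p of 0.00664 with DESeq2, which thereby called 2 of 9 genes against 3.71% of all. Soleus against psoas gave -1.27 (SE 0.87, adjusted p = 0.561). The summed fast myofibre markers were also highest in EDL, and these sums did not overlap between the muscles. All 8 markers were measured, with sums of at least 838111 in EDL, from 240278 to 595288 in psoas and at most 166020 in soleus. Their part in the Ddit4l difference was not tested.

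Ddit4 (REDD1, chr10, from 59949669 to 59951834), which releases TSC2 to inhibit mTORC1, showed no call between muscles in spite of its wide range. EDL had 456, 5102, 3789, 289.7 and 718 normalized counts. Psoas had 920.0, 3119, 2769, 373 and 446, and soleus had 890.1, 2670 and 229. The 3 muscles overlapped almost completely. The log2 differences were -0.46 for psoas against EDL (SE 0.85, adjusted p = 0.748), -0.72 for soleus against EDL (SE 1.01, adjusted p = 0.807) and -0.26 for soleus against psoas (SE 0.99, adjusted p = 0.932). The intervals were wide: for psoas against EDL, 2 SE reached from -2.17 to 1.25. In soleus against psoas 0 of the 9 genes were called by edgeR, against 0.0762% of all genes, and 0 by DESeq2, against 1% of all genes; 1 of 9, Asns, had an unadjusted p under 0.05, against 12.7% of all genes.

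The libraries with high Ddit4 shared label codes. A test of the codes that hold more than 1 muscle (T4, T5 and T6, 11 libraries, with the muscle in the model) was added after the values had been seen. The lowest, median and highest normalized counts of Ddit4 were 890.1, 2894 and 5102 in the 4 T4 libraries, 2769, 3279 and 3789 in the 2 T5 libraries, and 229, 373 and 718 in the 5 T6 libraries. No T6 library reached the lowest T4 or T5 library, a separation whose share over all genes was not counted. T6 was below T4 by a log2 difference of -3.10 (SE 0.35), T5 differed from T4 by -0.27, and the code was called (adjusted p = 0.00230). Ddit4 was the 1 gene called of 9, against 1.06% of all genes. The call was kept in 9 of 11 fits that each left out a library, with the adjusted p between 0.000815 and 0.0110, and was lost without psoas replicate 3 and without soleus replicate 3. EDL and psoas libraries of the same number share a code, and T5 holds 1 such pair. The test treated all 11 libraries as independent, so its SE and p ignore that pairing. The single T1 and T3 libraries had 456 and 920.0.

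Chac1 also had a lower median in T6 than in T4, with ranges that overlapped, and was not called. It had 27.3, 119 and 159 normalized counts (lowest, median, highest) in T4 and 19.1, 24.1 and 92.0 in T6, and its T5 libraries had 156 and 283. T6 was below T4 by a log2 difference of -1.71 (SE 0.48, adjusted p = 0.0334), and the adjusted p was 0.00671 without soleus replicate 1, the T4 library with low Ddit4 and Chac1. Ddit4 and Chac1 were the 2 of 9 genes with an adjusted p under 0.05, against 6.74% of all genes. Sesn2 had a T6 difference of -1.20 (SE 0.40, adjusted p = 0.108) and Ddit4l one of 2.26 in the opposite direction (SE 0.59, adjusted p = 0.0775). Asns (adjusted p = 0.969) and Atf4 (adjusted p = 0.633) did not pass, with T6 differences of -0.02 and -0.17. Total counts also differed by code, from 22251013 to 39484945 in T4, 12059090 to 16600971 in T5 and 9114176 to 20588849 in T6. All T4 libraries are labelled male and all T5 libraries female, and no other library has a sex label. What the code stands for was not tested, and code, sequencing depth and age or sex of the mice cannot be told apart where they coincide.

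**Figure D4:**
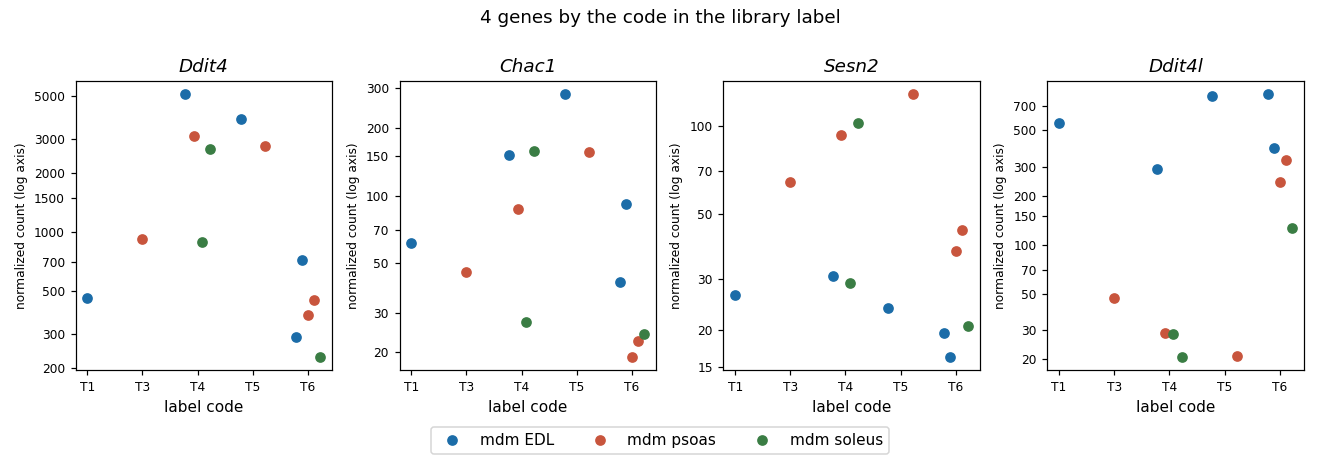
Normalized counts (vertical log axis) of Ddit4, Chac1, Sesn2 and Ddit4l by the code in the library label (horizontal axis), with colours for the muscle. All 5 T6 libraries lie at or below 718 for Ddit4, and all T4 and T5 libraries at or above 890.1.

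The 9 genes did not vary as 1 unit. Over the 13 libraries, the median Pearson's r of log2 CPM over the 36 pairs of genes was -0.08, and 16 pairs were above 0. With the muscle means removed, Chac1 and Ddit4 had an r of 0.905, Chac1 and Sesn2 one of 0.845, and Sesn2 and Ddit4 one of 0.764. With the means kept, these were 0.848, 0.275 and 0.514. With the means removed, Ddit4l ran against these genes, with -0.765 for Sesn2, -0.70 for Ddit4 and -0.686 for Chac1. With the means kept, its values were -0.784, -0.348 and -0.051. Ddit3 and Gdf15 had an r of 0.702 with the means removed and 0.573 with them kept. Atf4 was not among these groups, and its r with Asns was -0.614 with the means removed and -0.524 with them kept. These are descriptions over libraries that share label codes, depth and possibly animals.

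**Figure D5:**
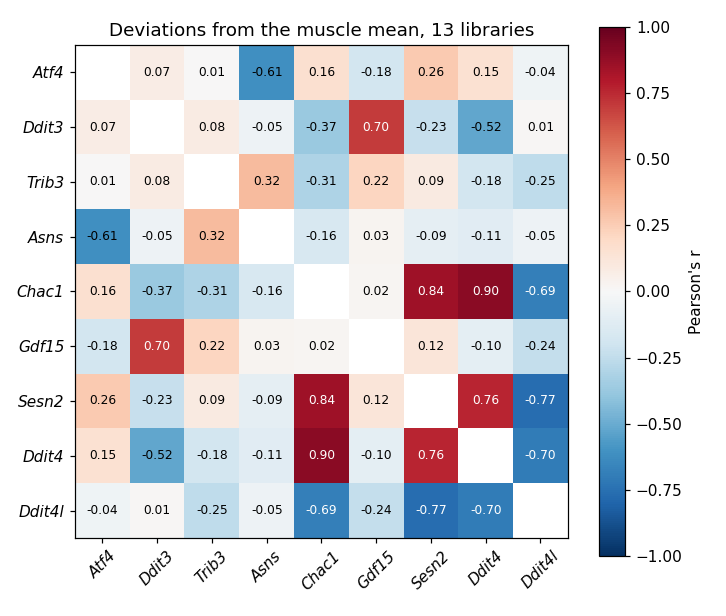
Pearson's r between the 9 genes (both axes) over 13 libraries after removing the mean of each muscle from log2 CPM, with colour and printed values. Chac1, Sesn2 and Ddit4 form a positive block with values from 0.764 to 0.905, and Ddit4l is negative with each of them.

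Among all genes tested, those most like Atf4 over the 13 libraries were B3gat2 (r = 0.887), A330023F24Rik (r = 0.885) and Rbmx (r = 0.873). Those most like Asns were Nadk (r = 0.950), Tbx18 (r = 0.948) and Apoc1 (r = 0.943). After the values were seen, the same was listed for Ddit4, for which Arrdc3 (r = 0.945), Glul (r = 0.941) and Fbxo31 (r = 0.935) came first, and for Sesn2, for which they were Ror1 (r = 0.964), Deptor (r = 0.930) and Slc39a14 (r = 0.929). Ddit4l was most like Ptx3 (r = 0.961), Mlf1 (r = 0.955) and Crym (r = 0.947).

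Other genes of the pathway were described as lists. In psoas against EDL, the counts that follow stand against 4.93% of all genes called and 51.3% with a log2 difference above 0. Of 14 tested genes for eIF2 kinases, phosphatases and eIF2B, 1 was called between psoas and EDL, Oma1, a mitochondrial protease upstream of the kinase HRI, which fell by 1.10 on the log2 scale (SE 0.25, adjusted p = 0.009996) and was called in only 8 of 21 alternatives. The median log2 difference of the list was -0.33, against 0.02 for all genes. Of 21 other ATF4 targets of amino acid and redox metabolism, 1 rose and 1 fell. Slc7a5, the large neutral amino acid transporter, had 193 ± 29.4 normalized counts in psoas and 40.2 ± 5.44 in EDL (SD, n = 5 each), and rose by 2.27 (SE 0.27, adjusted p = 0.000665) with a call in 21 of 21 alternatives. Got1, the cytosolic aspartate aminotransferase, fell by 1.81 (SE 0.37, adjusted p = 0.00595), and was not called with the replicate block (adjusted p = 0.0143). The list had a median of 0.31, with 16 of 21 above 0.

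Of 17 cytosolic aminoacyl-tRNA synthetases, 1 was called in psoas against EDL, a share near the 4.93% of all genes. Eprs, which charges glutamate and proline tRNAs, fell by 1.06 (SE 0.23, adjusted p = 0.00893) and missed the limit with the replicate block (adjusted p = 0.0105). The list had a median of -0.35, with 4 of 17 above 0. Of 18 ER chaperones and other genes of the unfolded protein response, Syvn1, a ubiquitin ligase of ER-associated degradation, rose by 1.15 (SE 0.22, adjusted p = 0.00492), and the list median was 0.14. None of 11 mitochondrial chaperones and proteases was called; Spg7 had -0.89 (SE 0.24, adjusted p = 0.0229) and Afg3l2 -0.57 (SE 0.20, adjusted p = 0.0595), and 1 of 11 was above 0. None of 7 partner transcription factors was called either, with Cebpg at -0.41 (SE 0.17, adjusted p = 0.101) and Atf3 at -0.87 (SE 0.39, adjusted p = 0.136).

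Of the 17 mTORC1 regulators related to Sesn2 and Ddit4, Rragd, a GTPase that recruits mTORC1 to lysosomes, fell by 1.48 in psoas against EDL (SE 0.30, adjusted p = 0.00585). The list median was 0.01, and DESeq2 called 3 of the 17, against 9.29% of all genes. In soleus against EDL and against psoas edgeR called no gene of any pathway list. In soleus against EDL, DESeq2 called Phgdh of 8 serine, glycine and one-carbon enzymes and Rragd of the 17 mTORC1 regulators, against 3.71% of all genes. For soleus against psoas it called Cdkn1a of 13 p53 targets, against 1% of all genes. DESeq2 called no other gene of the pathway lists in these comparisons. The called genes were named after the values were seen. The lowest adjusted p values among 8 serine, glycine and one-carbon enzymes were those of soleus against EDL. Phgdh, which starts serine synthesis, was at 534 ± 186 in soleus (SD, n = 3) and 170 ± 80.2 in EDL (SD, n = 5), a log2 difference of 1.65 (SE 0.34, adjusted p = 0.0158). Psat1, the next enzyme, had 0.95 (SE 0.24, adjusted p = 0.0416). Both differences had the sign of that of Asns. Neither passed the limit of 0.01 with edgeR on all libraries. Phgdh was called in only 2 of 21 alternatives, with an adjusted p of up to 0.0783 among the 21, and Psat1 in 0 of 21. The calls of Phgdh came from DESeq2 (log2 difference 1.64, adjusted p = 0.000455) and from edgeR without EDL replicate 4 (1.96, adjusted p = 0.00404). Over the whole enzyme list, the median of soleus against EDL was 0.12, with 4 of 8 above 0, against 47.4% of all genes.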

How the data were processed

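Whole EDL, psoas and soleus muscles of mdm mice gave 13 libraries (TruSeq Stranded Total RNA, Illumina NextSeq). Before deposit, the authors trimmed libraries of low base quality with Trimmomatic 0.32, aligned with TopHat2 2.1.1 to GRCm38 and made whole-number gene counts with GenomicAlignments; the overlap mode and strand setting were not given in the sources used here. The authors also deposited a normalized signal, the count divided by a DESeq2 size factor computed with libraries not used here, so a level depends on that factor. The tables hold 17924 genes.

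The members and the gene lists were chosen with earlier results of these data known. Testing was limited to the 17069 genes whose normalized count reached 10 in 3 or more libraries. One edgeR 4.0.16 quasi-likelihood fit (R 4.3.3, TMM) held all 13 libraries with muscle as the factor; the study's sequencing run is not in the labels. P-values were Benjamini-Hochberg adjusted over all genes tested, with limits of 0.01 and of 1 for the absolute log2 fold change. SE was derived from F as the log2 difference over its square root. Log2 CPM used a prior count of 2. DESeq2 1.42.0 and limma 3.58.1 (log2 of normalized count + 1) were alternatives. On data simulated for psoas against EDL with 17069 genes, edgeR recovered 97% of 4-fold and 100% of 8-fold changes. The simulation capped the spread between libraries and changed only genes above a count limit. Its recovery need not hold for genes as variable as Ddit4 and Ddit4l, whose SD over the 13 libraries was 96.4% and 102% of the mean. P-values measure the spread between these libraries, which the study calls biological replicates. Low counts limit Trib3, Gdf15 and Sesn2, with 1, 2 and 12 reads in their lowest libraries. Precision from counting alone is coarser there.

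The deviations of EDL and psoas libraries of the same number correlated by 0.407, 0.370, 0.316, 0.289 and 0.371, and the numbers were taken as pairs. These values cannot show that a pair is 1 animal. Replicate 1 had the highest value, 0.407, but has ages of 38 and 29 days and is not 1 animal. The other pairs each share a label code, and libraries of different numbers were not compared in this way. Named genes were all members, the 3 genes most like Atf4 and each called member, and, per list, called genes (at most 4) or the 2 with the lowest adjusted p. Coordinates are from GENCODE M21 (GRCm38) and promoters from RefSeq. Figures used Python 3.11.15 and matplotlib 3.10.9.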

Additional observations from a re-analysis of the deposited data

Results flagged for a closer look

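Within the 18 sets of 5 libraries (9 genes in EDL and in psoas), 2 held a library far from the other 4 by Dixon's test at the 95% level, for which the limit for 5 libraries is 0.71 of the range; about 1 in 20 sets does so by chance. Atf4 in psoas replicate 1 had 1034 normalized counts, with a gap of 0.711 of the range to the next library. Asns in EDL replicate 4 had 202.6 normalized counts, with a gap of 0.726 of the range. This library is the one without which Asns was called in psoas against EDL. Soleus, with 3 libraries, was not tested.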

How the results depend on the processing

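The number of the 9 genes called for psoas against EDL was 0, and it became 1 with DESeq2, 1 with the replicate block and 2 at an adjusted p under 0.05 with no fold limit, and ran from 0 to 1 when 1 library was left out (1 without EDL replicate 4). For soleus against EDL it was 1, and became 2 with DESeq2 and 0 when the code was a block, and ran from 0 to 1 when 1 library was left out (0 without soleus replicate 1). Across label codes it was 1 and ran from 0 to 2 when 1 library was left out (0 without psoas replicate 3 or soleus replicate 3, 2 without soleus replicate 1). When the label code was a block, the sign of the log2 difference turned for Gdf15 in psoas against EDL (0.26), Ddit3 in soleus against EDL (0.32) and Trib3 in soleus against psoas (-0.11). With limma it turned for Gdf15 in psoas against EDL (0.42) and Chac1 in soleus against psoas (-0.038). With the replicate block it turned for Gdf15 in psoas against EDL (0.19), and for Atf4 (-0.19) and Chac1 (-0.37) in soleus against psoas. When 1 library was left out, Gdf15 in psoas against EDL ran from -0.51 to 0.51, Ddit4 in psoas against EDL from -0.88 to 0.21, Ddit3 in soleus against EDL from -0.25 to 0.17, and in soleus against psoas Atf4 ran from -0.12 to 0.14, Chac1 from -1.35 to 0.68 and Ddit4 from -1.44 to 0.22. None of these turned differences was called, and the cause was not tested. The soleus numbers were not read as pairs (correlations of deviations from -0.302 to 0.421 with EDL and psoas). Besides the calls named, the replicate block changed no call of a member. Leaving out 1 library also ended calls of list genes in psoas against EDL: of 13 such fits, Oma1 was called in 2, Eprs in 2, Got1 in 7, Syvn1 in 9 and Rragd in 8.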

Other observations

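Targets of other stress pathways were described with the same fit. In psoas against EDL, 4 of 13 p53 targets and 3 of 11 hypoxia targets were called, against 4.93% of all genes. Cdkn1a, the cell cycle inhibitor p21, rose by 1.47 on the log2 scale (SE 0.28, adjusted p = 0.00429), and Zmat3, an RNA-binding protein, rose by 1.32 (SE 0.30, adjusted p = 0.00971). Tigar, which lowers glycolytic flux, fell by 1.54 (SE 0.32, adjusted p = 0.00676), and Ccng1, a cyclin, fell by 1.35 (SE 0.30, adjusted p = 0.00919). Among the hypoxia targets, Vegfa, the vascular growth factor, fell by 1.13 (SE 0.16, adjusted p = 0.00104) and kept its call in 21 of 21 alternatives. Ankrd37 fell by 1.76 (SE 0.39, adjusted p = 0.00920, called in 7 of 21 alternatives), and Ndrg1 rose by 1.499 (SE 0.30, adjusted p = 0.00600, called in 14 of 21). The 4 calls of p53 targets held in 9 to 18 of the 21.

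None of 13 glucocorticoid targets was called between muscles, with Foxo3 at 0.66 (SE 0.42, adjusted p = 0.289) and Pik3r1 at 0.43 (SE 0.28, adjusted p = 0.299) in psoas against EDL. Across label codes T4, T5 and T6, 10 of the 13 had an adjusted p under 0.05, against 6.74% of all genes, and 3 were called, against 1.06%. These genes were named after their values were seen. Mt1, a metallothionein, had 724 to 2722 normalized counts in T4, 1751 to 2174 in T5 and 218 to 475 in T6 (T6 against T4 -2.73, SE 0.29, adjusted p = 0.00184). Fkbp5, a co-chaperone of the glucocorticoid receptor, had 1514 to 3222 in T4, 1567 to 2672 in T5 and 193 to 553 in T6 (-3.11, SE 0.37, adjusted p = 0.00303). Cebpd, a transcription factor that is also on the list of ATF4 partners, had -1.87 (SE 0.24, adjusted p = 0.00553). For these 3 genes no T6 library reached the lowest T4 or T5 library, and the share of all genes so separated was not counted. Ppp1r15a, the stress-induced subunit that directs eIF2 dephosphorylation, had 484 to 818 in T4, 576 to 663 in T5 and 199 to 427 in T6 (-1.30, SE 0.18, adjusted p = 0.00414), and Shmt2, a mitochondrial serine enzyme, had a T6 difference of -1.60 (SE 0.26, adjusted p = 0.00980). The p53 target Trp53inp1 had -2.01 (SE 0.29, adjusted p = 0.00770). Of 11 fits that each left out a library, Mt1 was called in 11, Fkbp5 in 8, Ppp1r15a in 4, Shmt2 in 3, Trp53inp1 in 2 and Cebpd in 1, with the highest adjusted p at 0.00680, 0.0157, 0.0238, 0.0430, 0.0369 and 0.0294. The call of Fkbp5 was lost without EDL replicate 2, psoas replicate 3 or soleus replicate 3, and the other 4 were lost in most fits. In the test of the codes, an adjusted p under 0.05 was reached by 6.74% of all genes. It was reached by 6 of 21 other ATF4 targets, 2 of 7 partner transcription factors and 3 of 17 mTORC1 regulators. The number was 1 of 14 eIF2 genes, 1 of 8 serine, glycine and one-carbon enzymes and 1 of 18 ER genes. It was 1 of 13 p53 targets, 1 of 11 hypoxia targets, 0 of 17 synthetases and 0 of 11 mitochondrial chaperones and proteases. Of the 21 ATF4 targets 0 were called. The test of the codes ignores the pairing of EDL and psoas libraries. The meaning of the code was not tested.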
